A study of Mus musculus with 2 samples.

Results

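Neuregulins and HB-EGF are growth factors of the EGF family, and the ErbB proteins are the receptor tyrosine kinases that bind them. The group described here is 4 ligand genes (Nrg1, Nrg2, Nrg4 and Hbegf) and 4 receptor genes (Egfr, Erbb2, Erbb3 and Erbb4), 8 of the 43346 genes measured. They were chosen by name as members of the pathway, not by their values, though with earlier results of these data known. Each was found in the gene and transcript tables by its gene identifier. RNA came from hearts of B6NCrl mouse embryos at embryonic day 12.5, with male and female embryos pooled. The 2 libraries are labelled biological replicates of 1 group, with no mutant, treatment or second stage, so nothing in the data tests a response. The input per library was 10 ng of RNA above 200 nt in length, to which ERCC spike-in RNAs had been added. No label says that the libraries came from separate litters, so an SD over them measures only their own spread.

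In this family a ligand binds a receptor outside the cell and the receptor pairs with itself or another member, which switches on its kinase. ErbB2 has no known ligand of its own and serves as the partner of the others, while ErbB3 has a weak kinase and signals through its partners. In the mouse heart, Nrg1 is known as a signal of the endocardium that acts on ErbB2 and ErbB4 of the muscle wall, and loss of any of these genes stops the formation of trabeculae. ErbB3 is known from the cushion mesenchyme and from neural crest derivatives, and HB-EGF and EGFR are known for limiting the growth of the valve cushions.

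Estimated reads totalled 34751234 in replicate 1 and 31847875 in replicate 2. Mouse genes took 33480066 of them in replicate 1 and 30665239 in replicate 2. The floor of 3 reads, up to which a gene with no read could still lie, was 0.0896 CPM in replicate 1 and 0.0978 CPM in replicate 2. Intervals and floors here describe counting error alone, because PCR copies of a molecule are read more than once. The cardiomyocyte markers were all detected, led by Actc1 at 9859.8 and 9751.1 TPM and lowest in Nkx2-5 at 164 and 172 TPM, as were all markers of endothelium, cushion mesenchyme and epicardium. The hepatoblast markers stood apart as a list, with a sum of 194 TPM in replicate 1 and 42.7 TPM in replicate 2. All 8 of them were called lower in replicate 2, by the rule given further on, beside 4.61% of the protein-coding genes tested. They ran from Afp, the highest, at 99.3 and 18.2 TPM to Fgb, the lowest, at 1.82 and 0.32 TPM. Whether RNA of liver or of another neighbouring tissue contributed to any value below was not tested. With 1 group of 2 libraries the smallest p an exact sign test allows is 0.5, so the calls below are rules of size without p-values.

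Levels are in TPM, the transcript's share scaled to a fixed total, which corrects reads for transcript length and for the library's total. Genes at 1 TPM or above in each library were called detected. By this rule 7 of the 8 genes were detected, beside 57.5% of the 21461 nuclear protein-coding genes, and Nrg2 was not. The median of the 8 mean levels was 5.11 TPM, beside 3.64 TPM over those protein-coding genes. The genes were picked for their known role, so nothing particular to them is read from either comparison.

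**Figure D1:**
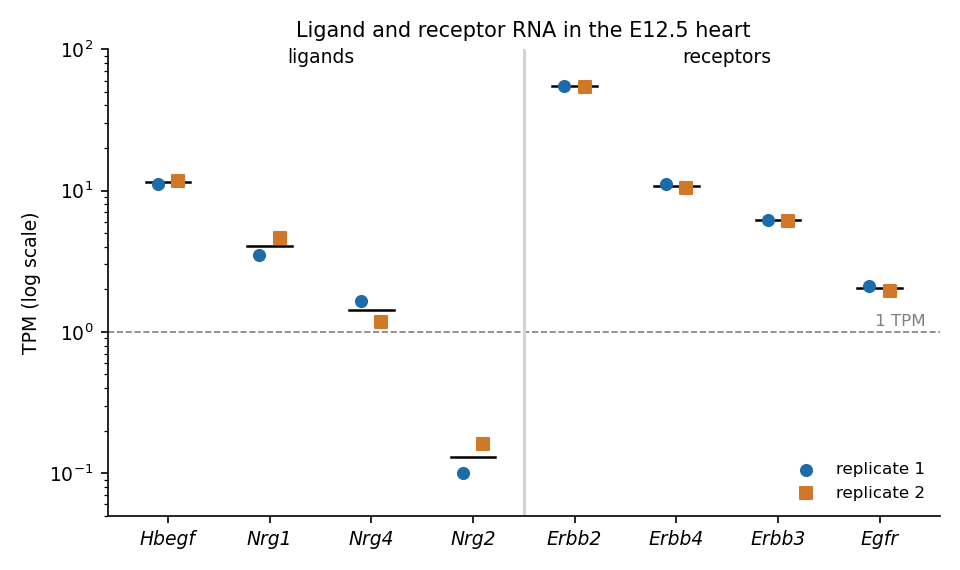
Level of each ligand gene (left) and receptor gene (right) in TPM on a log axis, with 1 point per library and a bar at the mean of 2. Erbb2 lies above all others at 54.9 and 54.4 TPM, and Nrg2 is the 1 gene below the dashed line at 1 TPM.

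The most abundant of the 4 ligand RNAs was Hbegf, not a neuregulin. Hbegf (ENSMUSG00000024486.5; mm10 chromosome 18, 36504927 to 36515805, minus strand) encodes HB-EGF, which binds EGFR and ErbB4. It stood at 11.2 TPM in replicate 1 and 11.7 TPM in replicate 2, a mean of 11.4 ± 0.382 TPM (SD, n = 2). These values rest on 599 and 568 reads, and the mean lies at percentile 63.2 of protein-coding genes. Hbegf made up 67.1 ± 1.08% of the summed TPM of the 4 ligands (n = 2).

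Nrg1 (ENSMUSG00000062991.6; chromosome 8, 31814551 to 32884029, minus strand), the ligand of ErbB3 and ErbB4, came second among the ligands. Its level was 3.51 TPM in replicate 1 and 4.58 TPM in replicate 2, a mean of 4.05 ± 0.757 TPM (SD, n = 2), at percentile 51.0. It rested on 166 reads in replicate 1 (exact 95% Poisson interval 142 to 193) and 196 in replicate 2 (170 to 225). These intervals are not scaled to the library's total, so their overlap does not compare levels. Divided by all gene reads, Nrg1 had 4.96 CPM in replicate 1 and 6.39 CPM in replicate 2. Nrg1 held 23.7 ± 3.28% of the ligand TPM, and Hbegf was 2.86 ± 0.441-fold higher than Nrg1 over the 2 libraries.

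The value for Nrg1 comes from 1 transcript model of 9 exons, since the deposited tables list no other for this gene, while the later GENCODE M21 annotation holds 18 models, of which 12 are coding. The listed model is 2103 bases long and has 2100 coding bases before the stop, so it counts no untranslated exon sequence. Its first exon holds 667 of those coding bases, 31.8% of them, and is held whole by 1 of the 11 other coding models, whereas its second exon is held by 11 of 11. In M21, 8 of the 12 coding models start upstream of that first exon. Reads from such forms reach the Nrg1 value through the exons they share with the listed model. What this does to the level, ligand share and rank of Nrg1 was not tested, since each alternative used here keeps that model.

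The EGF-like domain of Nrg1, which binds the receptor, ends in one of a pair of alternative exons, alpha or beta. The beta form is known for the tighter binding to ErbB receptors. The listed model holds the beta exon, as do 8 of the 12 coding models of M21, and 4 hold the alpha exon. Reads that fall on the alpha exon alone were therefore not counted, and the balance of the 2 forms cannot be read from these tables. Both exons are shown because they decide which Nrg1 RNA the value can see. They are reference sequence from GENCODE M21 (GRCm38, minus strand), 5′ to 3′, with the exon in capitals and the 12 coding bases on each side in lower case. The alpha exon lies at chr8:31838261-31838328 and the beta exon at chr8:31837670-31837728.
Nrg1 alpha exon: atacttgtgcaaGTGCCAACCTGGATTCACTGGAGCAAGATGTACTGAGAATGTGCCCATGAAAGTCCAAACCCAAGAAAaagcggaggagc
Nrg1 beta exon: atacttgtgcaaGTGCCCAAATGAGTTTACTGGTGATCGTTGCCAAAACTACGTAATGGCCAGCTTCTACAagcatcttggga

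Nrg4 and Nrg2 were the lowest ligand RNAs of the 4. Nrg4 (ENSMUSG00000032311.13; chromosome 9, 55220222 to 55326844, minus strand), a neuregulin that binds ErbB4 and is best known from brown fat, had 1.66 TPM in replicate 1 and 1.18 TPM in replicate 2. Its mean was 1.42 ± 0.339 TPM (SD, n = 2), at percentile 43.6. From the authors' posterior means it was 2.32 TPM, but these also give TPM to models without reads. Thus ENSMUST00000128020, with 0 posterior mean reads in both libraries, had 6.69% of the gene's posterior TPM in replicate 1 and 8.56% in replicate 2. The reads behind the Nrg4 level were 51.4 in replicate 1 (95% interval 38.3 to 67.5) and 45.7 in replicate 2 (33.4 to 61.0). Divided by all gene reads and not by length, Nrg4 had 1.54 CPM in replicate 1 and 1.49 CPM in replicate 2.

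No Nrg4 read was assigned to a coding transcript in either library. The gene has 13 listed models, of which 2 are coding, and both coding models have a share of 0% in both libraries. The largest share belonged to ENSMUST00000139261, a processed transcript without a coding frame, with 34.0% of the gene's TPM in replicate 1 and 67.5% in replicate 2. A model annotated for nonsense-mediated decay, ENSMUST00000135531, had 20.3% in replicate 1 and 22.7% in replicate 2. ENSMUST00000156112 and ENSMUST00000144939, 2 further processed transcripts, had 25.4% and 14.1% in replicate 1 and 0% each in replicate 2. The retained-intron model ENSMUST00000114306 had 6.18% in replicate 1 and 9.73% in replicate 2.

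The read assignment within Nrg4 was uncertain. The authors' posterior means, which average over possible assignments, gave the coding models 20.1% of the Nrg4 reads in replicate 1 and 26.7% in replicate 2. Nrg4 also shares 368 exonic bases with Fbxo22 on the opposite strand, which stood at 54.9 TPM in replicate 1 and 57.7 TPM in replicate 2. Of the 13 Nrg4 models, 3 hold some of these bases, and they took 77.2% of the Nrg4 reads in replicate 1 and 91.0% in replicate 2. The sources used here do not give strand, so reads of Nrg4 and of Fbxo22 cannot be told apart over those bases.

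Nrg2 (ENSMUSG00000060275.7; chromosome 18, 36017652 to 36197380, minus strand), a neuregulin known mainly from the nervous system, was at the edge of what this depth can show. It had 0.10 TPM in replicate 1 and 0.16 TPM in replicate 2, a mean of 0.13 ± 0.0424 TPM (SD, n = 2). This is 5 reads in replicate 1 (95% interval 1.62 to 11.7) and 10 reads in replicate 2 (4.80 to 18.4), both above the floor of 3 reads. Of its 3 listed models, ENSMUST00000115712 took 61.3% of the gene's TPM in replicate 1 and 100% in replicate 2, and the rest in replicate 1, 38.7%, lay on the noncoding ENSMUST00000115705, on 0.75 reads. By posterior mean share of TPM this order turns round, with 27.3 ± 4.53% for ENSMUST00000115712 and 47.0 ± 9.99% for ENSMUST00000115705 (SD, n = 2). Posterior mean reads keep the order, at 2.16 and 4.56 for ENSMUST00000115712 against 0.96 and 1.02 for ENSMUST00000115705. The remaining model, ENSMUST00000115713, is coding, as is ENSMUST00000115712, and had 1.88 and 4.42 posterior mean reads. The reads therefore do not settle which model they belong to. With posterior means the level of Nrg2 was 0.24 TPM.

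Among the receptors, Erbb2 exceeded the other 3 together. Erbb2 (ENSMUSG00000062312.5; chromosome 11, 98412470 to 98437716, plus strand) had 54.9 TPM in replicate 1 and 54.4 TPM in replicate 2, a mean of 54.6 ± 0.375 TPM (SD, n = 2). It ranked 2593 among protein-coding genes, at percentile 87.9, on 6299 and 5583 reads. Its RNA was 74.3 ± 0.569% of the summed receptor TPM (n = 2). The level of Erbb2 was 5.10 ± 0.207-fold that of Erbb4, 8.85 ± 0.0305-fold that of Erbb3 and 26.9 ± 1.40-fold that of Egfr, the last rising to 47.1 ± 4.66-fold with reads over the longest coding transcript.

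Nearly all Erbb2 RNA was assigned to the coding form. The 1 coding model, ENSMUST00000058295, had 94.4% of the gene's TPM in replicate 1 and 91.8% in replicate 2. A processed transcript without a coding frame, ENSMUST00000136032, had 5.07% in replicate 1 and 6.74% in replicate 2. It rested on 285 reads in replicate 1 with a posterior SD of 74.3 reads, and on 339 reads in replicate 2 with a posterior SD of 108 reads. Erbb2 shares 9 exonic bases with Mien1 on the opposite strand, which had 83.5 TPM in replicate 1 and 84.8 TPM in replicate 2.

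Erbb4 (ENSMUSG00000062209.11; chromosome 1, 68032186 to 69108059, minus strand), the neuregulin receptor of the muscle wall, was second among the receptors as deposited. It had 11.1 TPM in replicate 1 and 10.4 TPM in replicate 2, a mean of 10.7 ± 0.509 TPM (SD, n = 2), at percentile 62.2, on 1261 and 1129 reads. Its share of receptor TPM was 14.6 ± 0.481%.

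Erbb3 (ENSMUSG00000018166.8; chromosome 10, 128567523 to 128589652, minus strand), the neuregulin receptor with the weak kinase, had 6.22 TPM in replicate 1 and 6.13 TPM in replicate 2. The mean was 6.18 ± 0.0636 TPM (SD, n = 2), at percentile 55.1, on 870 and 775 reads, and the gene has 1 listed model. Erbb3 is also a gene of the neural crest and Schwann cell lineage, and 3 of 7 markers of that lineage were detected. The summed level of those 7 markers was 9.82 TPM in replicate 1 and 9.65 TPM in replicate 2. The highest was Ngfr at 3.62 ± 0.651 TPM, and the lineage factors Sox10 at 0.23 and 0.21 TPM and Foxd3, the lowest, at 0.02 and 0 TPM were near 0. The 5 cushion mesenchyme markers summed to 411 TPM in replicate 1 and 425 TPM in replicate 2, from Postn at 193.5 ± 1.33 TPM to Twist1 at 13.4 ± 0.389 TPM. The part of either cell type in the Erbb3 level was not tested, and in bulk heart RNA fewer cells of a type and less RNA per cell cannot be told apart.

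Egfr (ENSMUSG00000020122.12; chromosome 11, 16752203 to 16918158, plus strand), the receptor of HB-EGF, was the lowest receptor. It had 2.12 TPM in replicate 1 and 1.95 TPM in replicate 2, a mean of 2.04 ± 0.12 TPM (SD, n = 2), at percentile 45.9, on 257 and 262 reads. Its share of receptor TPM was 2.77 ± 0.123%. The 4 receptors summed to 73.6 ± 1.07 TPM and the 4 ligands to 17.0 ± 0.841 TPM, a ratio of 4.33 ± 0.277 between receptor and ligand RNA (SD, n = 2). The ratio and the shares of receptor TPM rest on the deposited lengths. The ratio also leaves out the other EGF family ligands, such as Tgfa at 5.35 TPM. Its SD covers neither choice.

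In order of level, the genes ran Erbb2, Hbegf, Erbb4, Erbb3, Nrg1, Egfr, Nrg4 and Nrg2. A pair was called different when its log2 ratio of TPM + 0.1 kept its sign across the libraries and lay, on average, more than 3 standard errors from 0. The error came from the robust SD between replicates of genes at that level. Of 28 pairs 26 were called, and of the 7 pairs of neighbours 5 were. Hbegf and Erbb4 did not differ beyond their spread, at 1.07 ± 0.0863-fold, nor did Egfr and Nrg4, at 1.46 ± 0.265-fold (SD, n = 2). Among the called neighbours, Erbb2 was 4.79 ± 0.193-fold higher than Hbegf, Erbb4 was 1.74 ± 0.0646-fold higher than Erbb3 on deposited TPM (an order that turns round with another length, given further on), and Erbb3 was 1.56 ± 0.307-fold higher than Nrg1. Nrg1 was 2.00 ± 0.490-fold higher than Egfr. All pairs with Nrg1 rest on its 1 listed model. From replicate 2 alone Erbb3 over Nrg1, with a log2 ratio of 0.41, was not called, nor was Nrg1 over Egfr from replicate 1 alone, with 0.70. Nrg4 was 16.6-fold higher than Nrg2 in replicate 1 and 7.38-fold higher in replicate 2. The spread used for that call is understated because Nrg2 has so few reads, and over coding transcripts alone, where Nrg4 is at 0, the order turns round.

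The level of Erbb4 turned on short transcript models. Its 5 listed models include 1 coding model with an incomplete 3′ end, ENSMUST00000153432 of 2196 bases, which took 43.4% of the gene's TPM in replicate 1 and 41.4% in replicate 2. A retained-intron model, ENSMUST00000126682, took a mean of 20.3 ± 1.06% (SD, n = 2), on 33.0 and 30.0 reads. The full-length model ENSMUST00000121473 of 12037 bases took 29.6% in replicate 1 and 31.0% in replicate 2. By reads the order was another, with 925 reads on the full-length model in replicate 1 and 818 in replicate 2, against 239 and 192 on the incomplete one.

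Dividing all Erbb4 reads by the length of its longest coding transcript, a choice made after seeing the data, gave 4.47 TPM in replicate 1 and 4.43 TPM in replicate 2. The deposited mean is 2.41 times that value. On this measure Erbb4 lay below Erbb3, at 0.720 ± 0.00258-fold (SD, n = 2), the opposite of the deposited order, and Erbb2 was 12.1 ± 0.0862-fold higher than Erbb4. Hbegf over Erbb4 was then called, with a log2 ratio of 1.34, and Erbb4 over Nrg1, with 0.15, was not. Over coding transcripts alone Erbb4 had 8.33 TPM in replicate 1 and 7.85 TPM in replicate 2. The order of Erbb4 and Erbb3 therefore depends on the lengths by which the Erbb4 reads are divided.

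**Figure D2:**
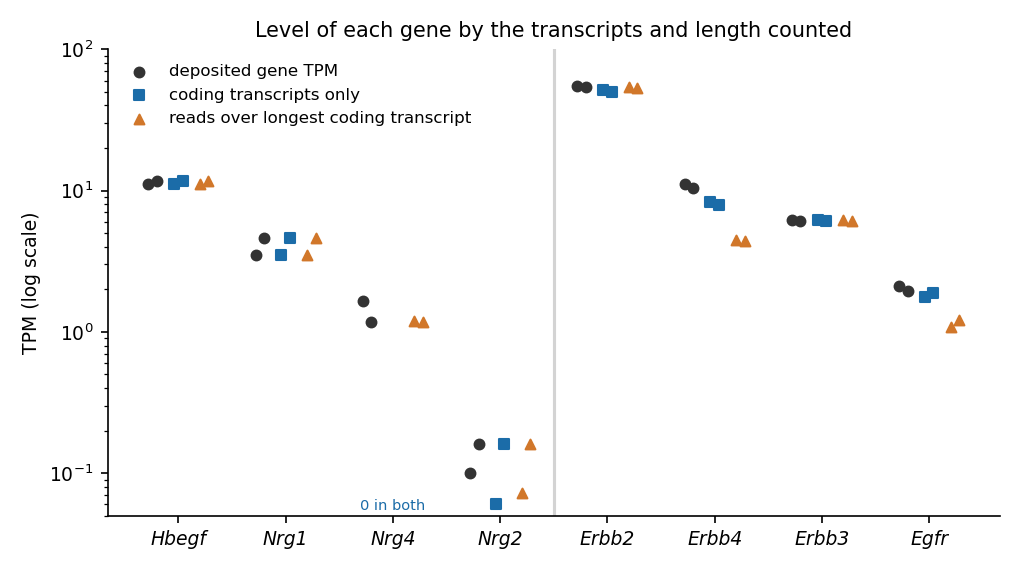
Level of each gene in TPM on a log axis, with 1 point per library, as deposited (circles), over coding transcripts alone (squares) and with all reads divided by the length of the longest coding transcript (triangles). Erbb4 falls to 4.47 and 4.43 TPM by the last measure, below Erbb3, and the coding value of Nrg4 is 0 in both libraries.

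Erbb4 is spliced into forms that differ in how the receptor is processed. One of a pair of exons encodes the stretch just outside the membrane: JM-a, which is known to make the receptor open to cleavage by ADAM17, or JM-b, which is known not to. A further exon, CYT-1, is known to carry a docking site for PI3-kinase inside the cell, and forms without it are called CYT-2. The mouse heart is known for the JM-b form. The 3 exons are shown because a transcript's form is read from whether it holds them. They are reference sequence from GENCODE M21 (GRCm38, minus strand), 5′ to 3′, with the exon in capitals and the 12 coding bases on each side in lower case. JM-a lies at chr1:68290243-68290317, JM-b at chr1:68290439-68290483 and CYT-1 at chr1:68043908-68043955.
Erbb4 JM-a exon: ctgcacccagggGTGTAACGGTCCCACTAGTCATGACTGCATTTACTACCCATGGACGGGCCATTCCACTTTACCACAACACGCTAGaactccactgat
Erbb4 JM-b exon: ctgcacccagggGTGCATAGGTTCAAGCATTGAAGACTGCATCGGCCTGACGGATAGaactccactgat
Erbb4 CYT-1 exon: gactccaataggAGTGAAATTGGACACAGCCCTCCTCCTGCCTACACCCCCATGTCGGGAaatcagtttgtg

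The flanks of JM-a and JM-b are the same, since the exons take the same place in the transcript, 75 bases for JM-a and 45 for JM-b. Models with JM-a held 33.0 ± 1.92% of Erbb4 TPM and 79.3 ± 1.35% of its reads (SD, n = 2). Models with JM-b held 46.7 ± 3.03% of Erbb4 TPM and 18.1 ± 1.38% of its reads. They include a 240-base processed transcript, ENSMUST00000131148, which also holds the bases of JM-a within a longer exon. It had 5.42% of Erbb4 TPM in replicate 1 and 3.20% in replicate 2, on 2 and 1 reads. The incomplete coding model alone held 42.4 ± 1.41% of Erbb4 TPM. In TPM JM-b was thus the larger form in both libraries and in reads JM-a was, in both libraries. Both full-length models carry JM-a, and the JM-b exon is in the incomplete model and in that processed transcript alone. The form therefore also stands for the length of the model. Reads across the exons themselves are not in these tables, and which form was the more abundant cannot be told from them.

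Of the 2 full-length Erbb4 models, the one with the CYT-1 exon, ENSMUST00000119142, was the minor one. It had 2.03% of Erbb4 TPM in replicate 1 and 3.38% in replicate 2, on 62.2 and 87.3 reads with posterior SDs of 22.3 and 34.6 reads. As a share of the TPM of these 2 models CYT-1 was 8.19 ± 2.32% (SD, n = 2), and the rest lacked that exon. No full-length JM-b model is listed, so the share of CYT-1 among JM-b forms cannot be read.

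**Figure D3:**
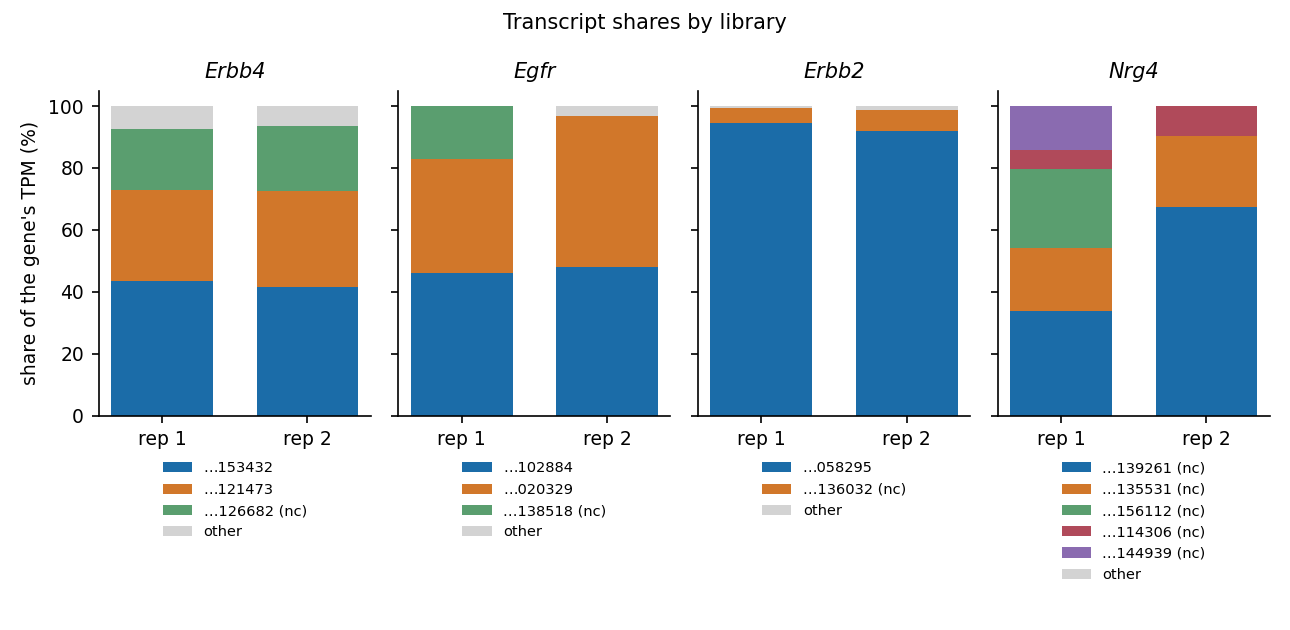
Share of each gene's TPM, in percent, taken by its transcript models in each library for Erbb4, Egfr, Erbb2 and Nrg4, with models under a mean of 5% added up as other and models that are not protein-coding marked nc; labels are the last 6 digits of the transcript identifier. Erbb2 lies almost whole on 1 coding model, Erbb4 and Egfr are divided between a long and a short coding model, and every Nrg4 bar is noncoding.

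Egfr was likewise divided between a long and a short coding model. The full receptor, ENSMUST00000020329 of 10208 bases and 28 exons, had 36.7% of the gene's TPM in replicate 1 and 48.5% in replicate 2. The short model, ENSMUST00000102884 of 2943 bases and 16 exons, had 46.1% in replicate 1 and 48.2% in replicate 2. A short Egfr transcript of this kind is known in the mouse to encode the extracellular domain without the kinase. By reads the full model led in both libraries, with 186 and 204 reads against 65.8 and 57.1 on the short one. A processed transcript, ENSMUST00000138518, took 17.2% of Egfr TPM in replicate 1 on 5.32 reads and 0% in replicate 2.

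The end of the short Egfr form is shown because it is the coding sequence that tells it from the full receptor. It is reference sequence from GENCODE M21 (GRCm38, plus strand), 5′ to 3′, with the coding bases that run on past the shared part of the exon into what is an intron of the full receptor, chr11:16887186-16887225, in capitals and the 12 bases before them, in the same exon, in lower case.
Egfr short form, coding end: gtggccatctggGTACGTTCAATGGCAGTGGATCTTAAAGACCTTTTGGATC

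With all Egfr reads divided by the length of the full receptor's transcript, its level was 1.08 TPM in replicate 1 and 1.21 TPM in replicate 2. The deposited mean is 1.78 times that value. Nrg1 was then 3.52 ± 0.364-fold higher than Egfr (SD, n = 2). On this measure Egfr and Nrg4, at 1.19 and 1.17 TPM, were again not called different.

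No ligand or receptor stood out between the libraries. A difference was called when the log2 ratio of TPM + 0.1 in replicate 2 over replicate 1 lay past 2 robust SDs of the ratios of genes at its level, among genes with a mean of at least 20 reads. None of the 7 genes with enough reads was called, beside 7.97% of the 13529 protein-coding genes tested, 3.36% higher and 4.61% lower in replicate 2. The highest ratio among the 7 was that of Nrg1, a log2 ratio of 0.37 where the SD of genes at its level was 0.21. The lowest was that of Nrg4, -0.46 with an SD of 0.32, and the receptors lay between -0.11 for Egfr and -0.01 for Erbb2. With edgeR's TMM scaling of reads and no length, the ratio of Nrg4 was -0.02 and that of Egfr changed sign, to 0.15. The deposited length of Nrg4 was 1407 bases in replicate 1 and 1917 in replicate 2, and that of Egfr was 5224 bases in replicate 1 and 6379 in replicate 2.

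**Figure D4:**
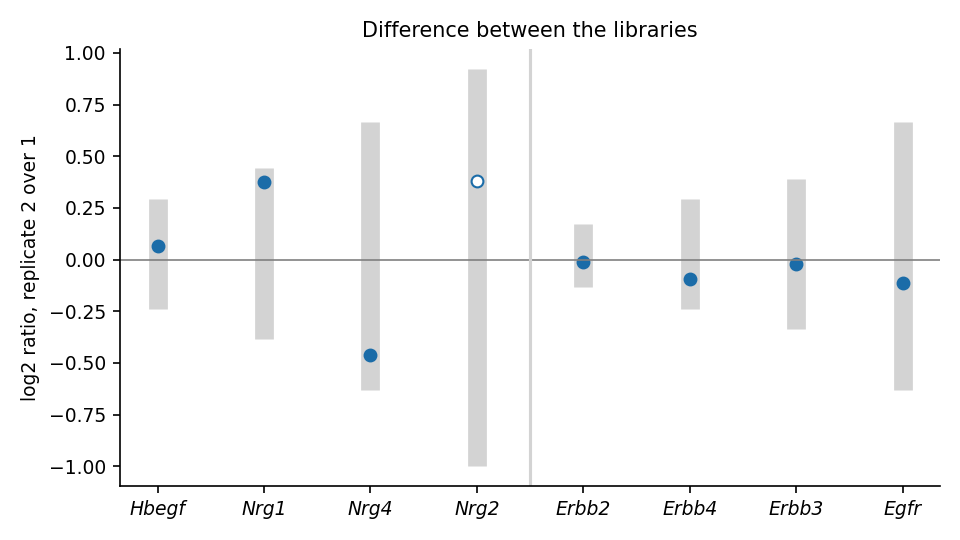
Log2 ratio of TPM + 0.1 in replicate 2 over replicate 1 for each gene (points), over a grey bar that spans 2 robust SDs each way around the median of protein-coding genes at its level. Each filled point lies within its bar, from -0.46 for Nrg4 to 0.37 for Nrg1; the open point is Nrg2, which has too few reads to be called.

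The other ligands of the EGF family were mostly low. Of 7 genes 1 was detected, beside 57.5% of protein-coding genes, with a median of 0.37 TPM beside 3.64 TPM over protein-coding genes. Tgfa, a ligand of EGFR, had 5.35 ± 0.226 TPM (SD, n = 2), below Hbegf and above Nrg1. Btc had 0.70 ± 0.0849 TPM, Egf 0.525 ± 0.247 TPM, Areg 0.37 ± 0.0849 TPM, Ereg 0.12 ± 0.0283 TPM and Epgn 0.11 ± 0.0849 TPM. Nrg3, the neuregulin of the brain, was listed at 0.01 TPM in replicate 1 and at 0 in replicate 2.

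Genes that act in freeing these ligands from the membrane, proteases among them, were mostly detected as RNA. Of 11 matched genes of shedding and release 10 were detected, beside 57.5% of protein-coding genes, with a median of 26.4 TPM. Adam10 led with 86.9 ± 0.544 TPM, followed by Adam9 with 43.9 ± 0.990 TPM and Adam15 with 41.9 ± 4.70 TPM. Adam17, the main protease of HB-EGF and of the JM-a form of ErbB4, had 26.4 ± 1.12 TPM. Adam8 was not detected, at 0.50 and 0.82 TPM.

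Adaptors and proximal kinases, which bind the phosphorylated receptors, were detected in 18 of 19 cases, beside 57.5% of protein-coding genes. Their median was 20.8 TPM. Crk at 90.0 ± 0.191 TPM, Grb2 at 83.0 ± 9.43 TPM and Shc1 at 62.8 ± 1.32 TPM were the highest. Grb7, an adaptor whose gene lies close to Erbb2, had 1.71 TPM in replicate 1 and 0.94 TPM in replicate 2 and missed the threshold.

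The inhibitors and turnover genes were detected in 12 of 12 cases, beside 57.5% of protein-coding genes, and their median was 13.0 TPM. The ubiquitin ligases Nedd4 at 517 ± 8.97 TPM, Stub1 at 165 ± 1.12 TPM and Itch at 35.6 ± 0.714 TPM led, and Nedd4 and Itch are known to act on ErbB4 and on many other proteins. Errfi1, a feedback inhibitor of the receptor kinases, had 12.4 ± 1.40 TPM, and Rnf41, the ubiquitin ligase of ErbB3, had 13.6 ± 0.990 TPM. All 10 chaperones, partners and members of the intramembrane protease were detected, beside 57.5% of protein-coding genes, with a median of 71.0 TPM. Hsp90ab1 at 1055 ± 0.912 TPM, Hsp90aa1 at 525 ± 9.22 TPM and Cdc37 at 127 ± 3.42 TPM were the highest. HSP90 and its partner CDC37 hold kinases such as ErbB2 in shape and serve many other proteins.

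All 14 feedback and response genes of the MAP kinase pathway were detected, with a median of 12.6 TPM. Ccnd1, a cyclin of the cell cycle, had 68.7 ± 5.43 TPM, and the inhibitors Spry2 and Dusp6 had 50.2 ± 0.240 and 43.5 ± 2.38 TPM. These genes answer to many receptors, and with no perturbed sample their levels do not measure ErbB signalling. Over all 6 lists 65 of 73 matched genes were detected, or 89.0%, beside 57.5% of protein-coding genes; the lists hold genes picked for their known role, so nothing particular to them is read from this. Of the 69 with a mean of at least 20 reads 6 were called between the libraries, or 8.70%, near the 7.97% of all protein-coding genes.

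**Figure D5:**
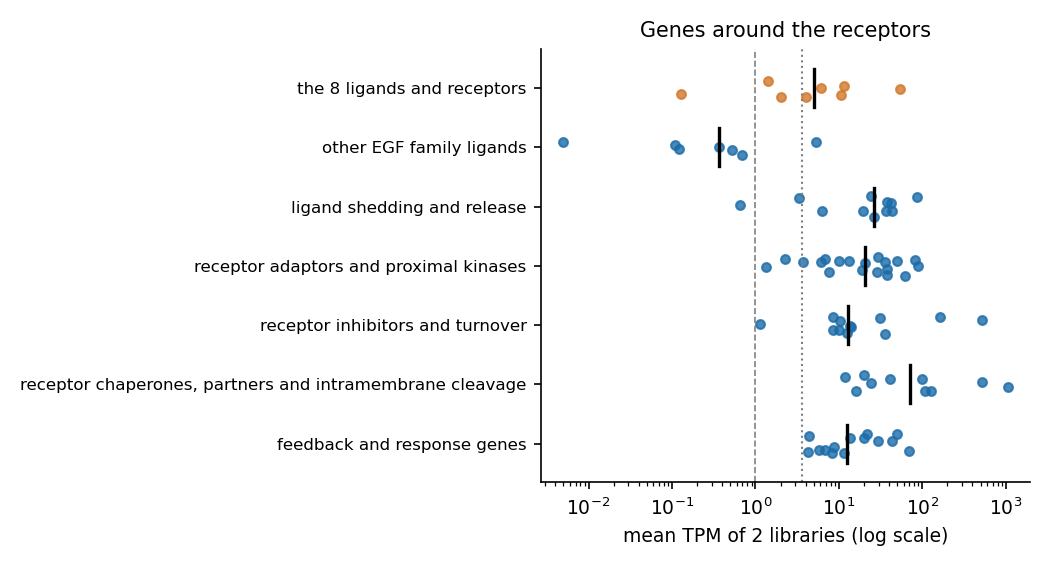
Mean TPM of 2 libraries on a log axis for the 8 ligands and receptors (orange) and for the genes of 6 pathway lists (blue), 1 point per gene, with a black bar at each list's median. The dashed line is 1 TPM and the dotted line is the median of protein-coding genes, 3.64 TPM; the other EGF family ligands lie lowest, with a median of 0.37 TPM.

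Markers of the other cell types of the heart and its neighbours were also measured. Endothelial markers, from Pecam1 at 57.5 ± 2.73 TPM to Npr3 at 10.8 ± 0.184 TPM, summed to 336 TPM in replicate 1 and 347 TPM in replicate 2, and the mean of Nrg1, 4.05 TPM, was lower than that of each of the 8. Epicardial markers, from Upk3b at 73.7 ± 0.481 TPM to Tbx18 at 16.2 ± 0.997 TPM, summed to 207 and 204 TPM. The macrophage list, all 5 detected, ran from Lyz2 at 77.2 ± 4.84 TPM to Adgre1 at 2.00 ± 0.0283 TPM. Foregut and lung epithelium markers, of which 4 of 7 were detected, ran from Krt18 at 31.9 and 25.5 TPM to Sftpc at 0 and 0.93 TPM. Of the 6 with enough reads 2 were called lower in replicate 2 and 1 higher, beside 4.61% and 3.36% of protein-coding genes. The red cell markers were led by Hbb-y, an embryonic beta globin, with 27205 TPM in replicate 1 and 24177 TPM in replicate 2. Of these 5 markers 3 were called lower in replicate 2. Since TPM is a share of the whole, scaling to nuclear protein-coding genes other than globins raised all 8 levels, Erbb2 to 74.9 TPM and Erbb4 to 14.7 TPM, and left their ratios as they were.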

How the data were processed

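RNA was measured in 2 heart libraries. Per the deposited sample notes, reads were assigned to mm10 with annotation M4; aligner, quantifier, strand and rRNA removal: not given in the sources used here. Extraction used a mirVana kit, per the labels' protocols, which also cite a SMARTer low-input kit that can prime from poly(A) tails. The authors' expected counts are estimated reads, which need not be whole. The deposited TPM values are length-corrected shares in which spike-ins are counted too, and the deposited FPKM values scale by length and library. The deposited percent values give each transcript's share of its gene's TPM. Posterior means and SDs of counts, also deposited, show uncertain assignment.

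Names, types and exons came from GENCODE M21, also on GRCm38, which matched 42462 of 43346 gene IDs. Of the pathway lists, Nrdc matched none. Robust SDs came from 20 abundance bins. Expected counts were rounded for edgeR 4.0.16 TMM factors and DESeq2 1.42.0 size factors (R 4.3.3), used only as alternatives; other values used Python 3.11.15, numpy 2.4.6, pandas 2.3.3 and scipy 1.17.1, and plots matplotlib 3.10.9. The rules were tested on simulated counts with an assumed spread. The simulated pairs and changed genes had more reads than Nrg4 and Nrg2, so that test does not cover pairs with either gene. The libraries were counted as 2 samples because the labels call them biological replicates; their counts differed by more than counting noise (chi-square per degree of freedom of 4.51), which 2 preparations of 1 RNA can do too.

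The members, lists, rules and alternatives were chosen with earlier results of these data known. Named genes were every member, the 3 highest of each pathway list with any member not detected, and the highest and lowest marker of each list, except that the lowest red cell marker is not reported here. Adam17, Errfi1, Rnf41, Sox10, Fbxo22 and Mien1 were named for their role or their overlap, after their values were seen.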

Additional observations from a re-analysis of the deposited data

How the results depend on the processing

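The 7 genes detected became 5 at a threshold of 2 TPM, 6 at 1 FPKM and 6 over coding transcripts alone, and stayed 7 at 0.5 TPM, at 1 CPM, with posterior means and over the longest coding transcript. The 26 pairs called ranged from 24 with 5 standard errors to 28 over coding transcripts, with 25 from either library alone. No gene was called between the libraries under any of the 6 alternatives run. Among single pairs 2 turned round, both under a choice made after seeing the data: Erbb4 over Erbb3 had a log2 ratio of -0.46 with reads over the longest coding transcript, and Nrg4 over Nrg2 had -1.03 with TPM of coding transcripts, where Nrg4 is at 0. Both follow from the transcripts and lengths counted. With reads over the longest coding transcript Erbb4 over Nrg1 was no longer called, at 0.15, and Hbegf over Erbb4 became called, at 1.34. Among the values for single pairs under the alternatives, 324 kept their direction and side of the threshold, 5 lost the call, 4 gained it, 2 turned round and 1 moved without a call. Of the values for member levels 20 moved by more than 1 SD and 28 did not. The moved ones included all 8 when scaled to protein-coding genes other than globins. Of the values for transcript shares 14 moved, 8 of them with posterior means, and 46 did not. Leaving out either library cannot move a mean of 2 by more than 1 SD. The 8 levels and 15 shares under each of those settings therefore could not count as moved. For Nrg2 and Nrg4 the read number limits every statement. No paired analysis was possible because there is 1 group.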
